A study of Mus musculus with 4 samples.

Results

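The amino acid transporter genes of brain endothelial cells (ECs) were examined in RNA-seq of mouse cortex at embryonic day 18, in 2 WT and 2 Foxq1 cKO samples. The members were every listed gene whose symbol belongs to the solute carrier families Slc1, Slc3, Slc6, Slc7, Slc36, Slc38 or Slc43, with Slc38a5 left out by the rule. They numbered 36 of 12693 listed genes. The symbol rule also took in Slc7a6os, which shares a symbol with its neighbour Slc7a6 and is no carrier, and Slc43a3, a carrier of purine nucleobases.

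ECs were sorted from the cortex of C57BL/6 embryos by the surface protein CD31. The Foxq1 cKO genotype was FOXQ1fl/fl;Tie2-Cre, in which a floxed Foxq1 is deleted by Cre under the Tie2 promoter, a promoter that is also active in blood cell precursors. The controls are labelled WT, and the study's methods take littermates without Cre as controls, so a WT sample may carry floxed alleles. No source used here says whether a sample came from 1 embryo or from several, and the p-values below measure only the spread between these samples.

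Brain ECs carry amino acids in both directions between blood and brain. Large neutral amino acids such as leucine and phenylalanine cross by system L, in which a light chain such as LAT1 (Slc7a5) pairs with the heavy chain 4F2hc (Slc3a2). Cationic amino acids cross by CAT1 (Slc7a1), and sodium-coupled carriers on the brain-facing side move glutamine, alanine, serine and glutamate. In the study, transport of substances was among the functions that set brain ECs apart from ECs of other organs, and the RNA-seq asked what loss of FOXQ1, a forkhead transcription factor, does to the transcriptome of brain ECs.

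Each value below is a normalized count, the reads of a gene divided by 1 size factor per sample. Depth lay between 15827166 and 21466436 reads on listed genes. Foxq1 was measured at 353 and 297 in WT and at 5.44 and 32.6 in Foxq1 cKO samples, and an opposite-strand gene overlaps 66.1% of its annotated exon bases. Its log2 fold change was -4.47 (unadjusted p = 0.00507, adjusted p = 0.857 in limma), and DESeq2 gave it an adjusted p of 0.00854. WT replicate 1 stood apart from the other 3 samples. The first principal component held 47.2% of the variance and separated it from the rest, and its correlations with the others across genes were 0.842 to 0.859 against 0.878 to 0.904 among the other 3. EC markers were abundant, with Cldn5, a tight junction protein, at 126706 to 151977. RNA of other cells was present too, with the pericyte marker Rgs5 at 89164 to 93044. Lists of neuron, oligodendrocyte precursor, pericyte, meningeal fibroblast and erythroid markers held no gene at an unadjusted p under 0.05 in limma, DESeq2 or edgeR. Lists of glial and of microglia and macrophage markers, taken up below, each held 1 in limma, lower in Foxq1 cKO samples. Log2 means were lower for 7 of 9 neuron and 3 of 3 oligodendrocyte precursor markers. They were lower for 4 of 6 pericyte, 2 of 5 meningeal fibroblast and 3 of 6 erythroid markers.

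Per length, the members spanned a wide range of levels, and 8 of them stood well above the rest. Levels are given as normalized counts per kb of annotated exon, the mean of the 4 samples. Slc1a4 (ASCT1, the sodium-dependent exchanger of serine, alanine and other small neutral amino acids) was highest, at 8821 per kb, with samples from 7519 to 10266. Slc3a2, the heavy chain, followed at 8086 per kb. Their sample ranges overlapped, so their order is not resolved.

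Below a gap, 6 members lay between 1511 and 3355 per kb. These were Slc7a5 (LAT1) at 3355, Slc38a3 (SNAT3, a system N carrier of glutamine) at 2556, Slc7a8 (LAT2, a light chain for neutral amino acids) at 2344, Slc7a1 (CAT1) at 2312, Slc6a6 (the taurine transporter) at 1797 and Slc38a2 (SNAT2, a system A carrier) at 1511. Within these 6, each overlapped in its sample range with its neighbours, and Slc38a2, the last, lay above Slc38a10 below it in every sample. Slc38a10, a poorly studied carrier, and Slc1a3 (the glutamate transporter GLAST) came next at 785 and 746 per kb.

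The other 26 members lay between 10.1 per kb for Slc6a17, a neuronal vesicle carrier of neutral amino acids, and 375 per kb for Slc43a2 (LAT4). Neighbours in this order differed beyond their sample ranges only after Slc3a2, after Slc38a2 and after Slc1a3. Slc1a4 exceeded 99.7% of listed genes in level per kb, and Slc7a11 (the cystine/glutamate exchanger xCT), at 10.9 per kb, exceeded 5.36%. The exon length joins the exons of all annotated isoforms, so genes with long alternative ends, such as Slc38a1 (SNAT1, 17.2 kb), have low values per kb.

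**Figure D1:**
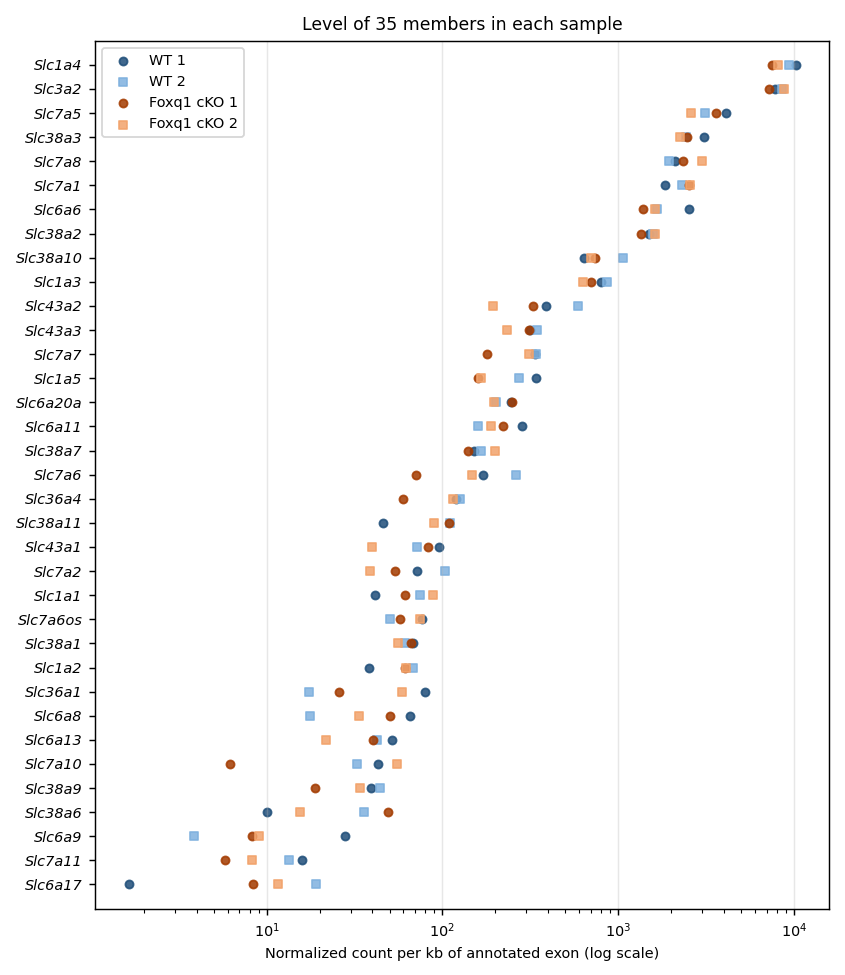
Normalized counts per kb of annotated exon (log scale) for 35 of the 36 members in each of the 4 samples, circles for replicate 1 and squares for replicate 2, ordered by the mean. Slc1a4 and Slc3a2 sit at the right. The widest spreads between samples of the same gene lie below about 50 per kb, where some members spread less.

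Between genotypes, no member had an adjusted p under 0.05, and 3 of the 36 had an unadjusted p under 0.05 in limma. All 3, Slc1a4, Slc1a5 and Slc43a2, were lower in Foxq1 cKO samples. Across all 12472 genes tested, 3.05% were lower and 2.17% higher at an unadjusted p under 0.05, 5.22% in either direction, and 0% had an adjusted p under 0.05, where the smallest was 0.857. With DESeq2 on the recovered reads, 7 members had an unadjusted p under 0.05, where 6.49% of all genes did, and none an adjusted p under 0.05, where 0.465% did. With quantile normalization and with the replicate number as a block in limma, 5 members each had an unadjusted p under 0.05, where 5.18% and 5.56% of all genes did. With edgeR the unadjusted count was 4, where 4.98% of all genes were counted, and no member had an adjusted p under 0.05. The exact permutation test of 2 against 2 samples cannot give a two-sided p below 0.333.

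Without WT replicate 1, the sample that stood apart, 4 members had an unadjusted p under 0.05, where 6.62% of all genes did, and all 4 were lower, where 2.53% were. These were Slc43a2, Slc38a10, Slc7a2 and Slc7a6, so Slc1a4 and Slc1a5 were not among them. Without WT replicate 2 the count was 6, where 12.6% of all genes were counted, and 4 of these were lower, where 4.7% were. Without Foxq1 cKO replicate 1 it was 2, 1 of them lower, where 2.21% and 1.68% of all genes were counted. Without Foxq1 cKO replicate 2 it was 2, both lower, where 3.86% and 3.01% were.

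In 25 of the 36 members the mean of the log2 values was lower in Foxq1 cKO samples, against 6149 of all 12472 genes tested and 85 of 165 other solute carriers. The median log2 fold change (Foxq1 cKO minus WT, on the log2 scale of the value plus 1) was -0.23, against 0.0086 over all genes tested and -0.018 over 165 other solute carriers. It was -0.16 without WT replicate 1 and -0.40 without WT replicate 2. In 13 members both Foxq1 cKO samples lay below both WT samples, against 18% of all genes tested, and in 2 members both lay above, also against 18%. Among the other solute carriers these counts were 30 and 24 of 165.

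The summed normalized counts of the members were 195554 and 191074 in WT and 172068 and 181532 in Foxq1 cKO samples. Over all 12693 listed genes the sum was lower too, at 1.81e+07 and 1.78e+07 in WT and 1.72e+07 and 1.73e+07 in Foxq1 cKO samples. The sum of 12 EC markers was also lower in both Foxq1 cKO samples, at 309654 and 289613 in WT and 264752 and 282519 in Foxq1 cKO samples, with 9 of 12 log2 means lower, a median log2 fold change of -0.13 (-0.067 without Foxq1 cKO replicate 1 and -0.21 without Foxq1 cKO replicate 2), and only Flt1, a VEGF receptor, at an unadjusted p under 0.05, which was lost without WT replicate 1 (unadjusted p = 0.239) and without either Foxq1 cKO sample (0.110 and 0.166). In bulk samples, fewer cells of a type and less RNA per cell cannot be told apart. The part of the EC marker level in the members' lower median was not tested. With quantile normalization, the median of the members was -0.11, and 11 and 2 members did not overlap, against 17.5% and 17.9% of all genes.

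**Figure D2:**
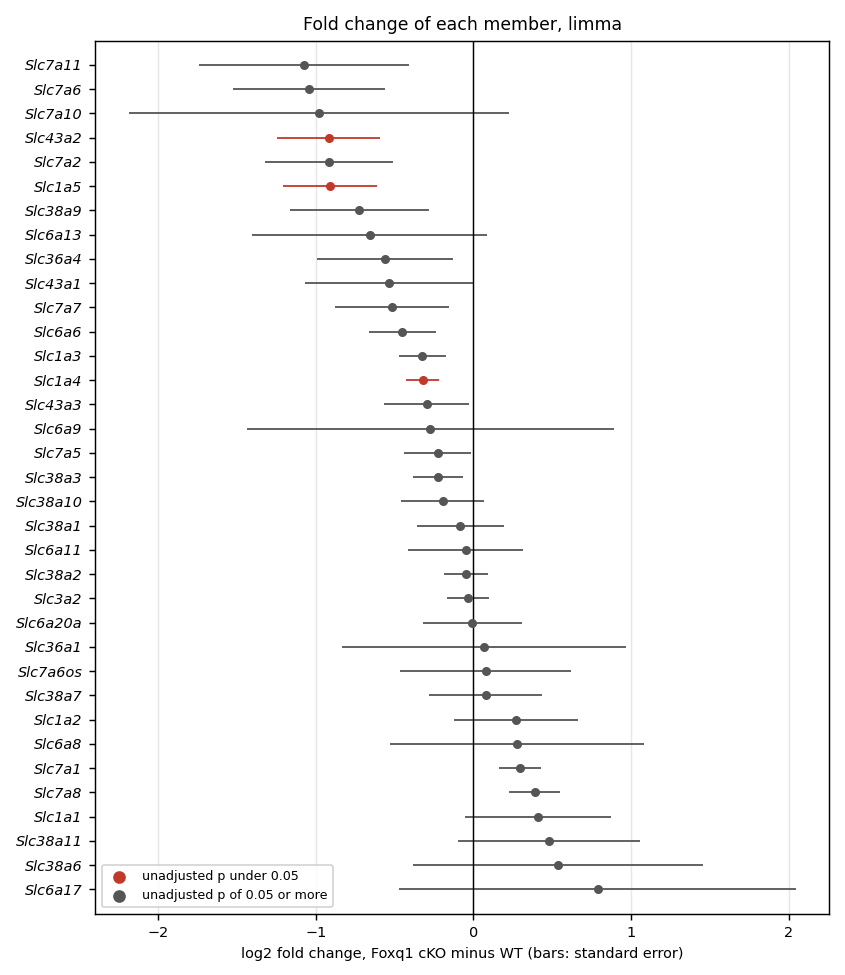
log2 fold change (Foxq1 cKO minus WT) with its standard error for 35 of the 36 members from limma, sorted by value, with the 3 members at an unadjusted p under 0.05 in red. Values run from -1.07 for Slc7a11 to 0.79 for Slc6a17, and the bars are short for abundant members and long for scarce ones.

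Both listed ASCT exchangers had an unadjusted p under 0.05 in limma. ASCT1 supplies the brain with L-serine across the endothelium and ASCT2 (Slc1a5) exchanges glutamine and other small neutral amino acids. In GRCm38, Slc1a4 lies on chromosome 11 (20302180 to 20332713, minus strand). Normalized counts were 40304 and 36679 in WT and 29521 and 32017 in Foxq1 cKO samples, 38492 ± 2564 against 30769 ± 1765 (SD, n = 2). The groups did not overlap, and the lower WT sample was above the higher Foxq1 cKO sample. The log2 fold change was -0.32 (standard error 0.106, unadjusted p = 0.0225, adjusted p = 0.857 in limma).

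Slc1a4 was therefore at 79.9% of its WT mean, a small difference in an abundant gene. Without WT replicate 1 the log2 fold change was -0.25 (unadjusted p = 0.109), and without Foxq1 cKO replicate 1 it was -0.26 (unadjusted p = 0.109). With eBayes without a trend, which draws all genes toward 1 common variance, the p was 0.313.

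Slc1a5 lies on chromosome 7 (16781340 to 16798274, plus strand). Its normalized counts were 1425 and 1140 in WT and 667 and 690 in Foxq1 cKO samples. The Foxq1 cKO samples lay close together at 52.9% of the WT mean, and the groups did not overlap. Its log2 fold change was -0.91 (standard error 0.297, unadjusted p = 0.0219, adjusted p = 0.857 in limma). Each of the 10 alternatives that used all samples gave an unadjusted p under 0.05. Leaving out a sample gave -0.75 without WT replicate 1 (unadjusted p = 0.0912), -0.88 without Foxq1 cKO replicate 1 (unadjusted p = 0.0873) and -0.93 without Foxq1 cKO replicate 2 (unadjusted p = 0.0774).

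**Figure D3:**
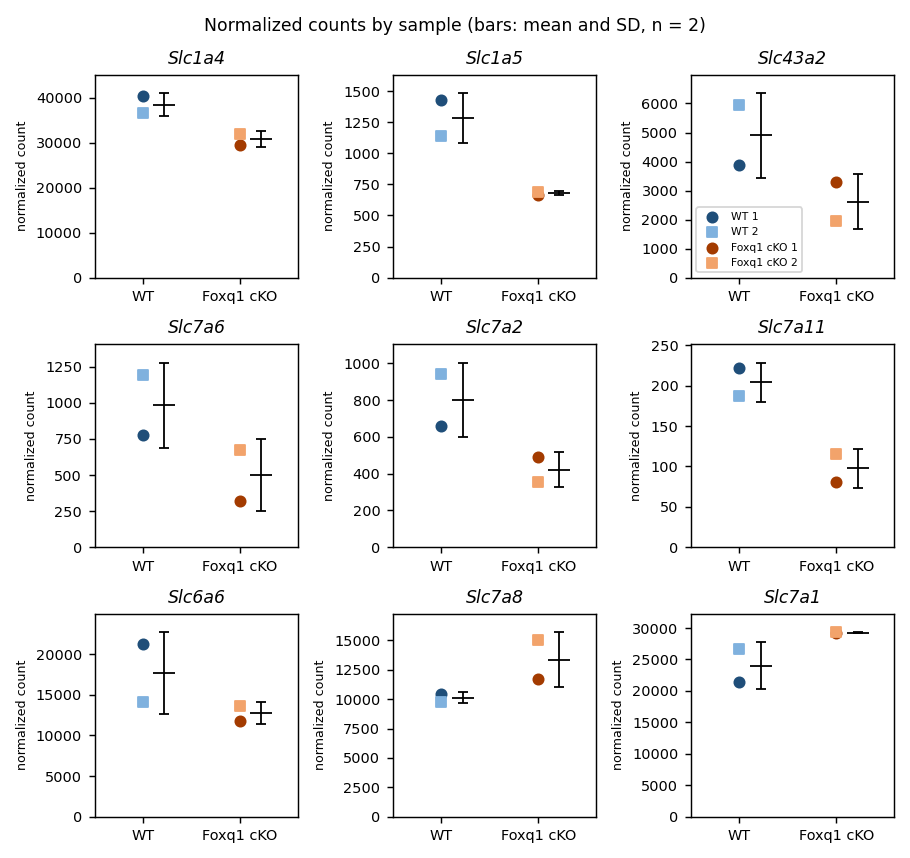
Normalized counts of 9 members in each WT and Foxq1 cKO sample, circles for replicate 1 and squares for replicate 2, with the mean and SD of each group (n = 2) as black bars on axes that start at 0. In Slc1a4, Slc1a5, Slc43a2, Slc7a6, Slc7a2, Slc7a11 and Slc6a6 both Foxq1 cKO samples lie below both WT samples, and in Slc7a8 and Slc7a1 both lie above.

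The system L members did not move together. LAT4, a facilitative carrier of branched-chain amino acids, methionine and phenylalanine, is encoded by Slc43a2 on chromosome 11 (75531694 to 75577575, plus strand). It was measured at 3874 and 5935 in WT and at 3295 and 1951 in Foxq1 cKO samples. The groups did not overlap, but the samples of each genotype differed by more than 1.5-fold. On the log2 scale the difference was -0.92 (standard error 0.326, unadjusted p = 0.0302, adjusted p = 0.857 in limma). It was -1.23 without WT replicate 1 (unadjusted p = 0.0103), -0.61 without WT replicate 2 (unadjusted p = 0.129) and -0.54 without Foxq1 cKO replicate 2 (unadjusted p = 0.174). With eBayes without a trend the p was 0.112. An annotated opposite-strand gene, also listed, overlaps 9.18% of its exon bases.

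LAT2 (Slc7a8) was in the other direction, at 10471 and 9772 in WT and at 11683 and 15009 in Foxq1 cKO samples. Both Foxq1 cKO samples were above both WT samples. Its log2 fold change was 0.39 (standard error 0.160, unadjusted p = 0.0512). In 6 of 10 alternatives with all samples the p was under 0.05, but the value was 0.34 without WT replicate 2 (unadjusted p = 0.144) and 0.21 without Foxq1 cKO replicate 2 (unadjusted p = 0.292).

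LAT1 (Slc7a5) was measured at 15267 and 11523 in WT and at 13375 and 9594 in Foxq1 cKO samples. The groups overlapped, and the log2 fold change of -0.23 had a 95% interval from -0.75 to 0.30. Its partner Slc3a2 was at 27390 and 30280 in WT and at 25545 and 30934 in Foxq1 cKO samples. Its log2 fold change of -0.035 had a 95% interval from -0.36 to 0.29, and it was 0.011 with quantile normalization. LAT3 (Slc43a1), at 227 to 549 over the 4 samples, overlapped between groups. Slc43a3, the nucleobase carrier of the same family, was at 1400 and 1544 in WT and at 1378 and 1040 in Foxq1 cKO samples (log2 fold change -0.30, unadjusted p = 0.316, and -0.094 without Foxq1 cKO replicate 2).

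Among the cationic carriers, CAT1 was higher and the other 3 were lower in both Foxq1 cKO samples, and none had an unadjusted p under 0.05 in limma, whereas DESeq2 gave 0.0486 for Slc7a2 and 0.0483 for Slc7a6. Slc7a1 was measured at 21383 and 26680 in WT and at 29213 and 29335 in Foxq1 cKO samples. The Foxq1 cKO samples nearly coincided and WT replicate 1 was lowest. Its fold change on the log2 scale was 0.29 (unadjusted p = 0.0709), and without WT replicate 1 it was 0.13 (unadjusted p = 0.356).

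Slc7a2 (CAT2, an inducible cationic carrier) was measured at 656 and 944 in WT and at 488 and 355 in Foxq1 cKO samples. Slc7a6 (y+LAT2, which exchanges cationic for neutral amino acids with sodium) was at 775 and 1192 in WT and at 321 and 675 in Foxq1 cKO samples. Neither overlapped between groups, and the log2 fold changes were -0.92 (unadjusted p = 0.0640) for Slc7a2 and -1.04 (unadjusted p = 0.0736) for Slc7a6. Without WT replicate 1 both were larger, -1.18 (unadjusted p = 0.0433) for Slc7a2 and -1.35 (unadjusted p = 0.0470) for Slc7a6. Without WT replicate 2 they were smaller, -0.66 (unadjusted p = 0.227) for Slc7a2 and -0.73 (unadjusted p = 0.245) for Slc7a6, and without Foxq1 cKO replicate 1 Slc7a6 was at -0.51 (unadjusted p = 0.351). Slc7a6os, the neighbour of Slc7a6 on the other strand, overlapped between groups at 212 to 321.

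Slc7a7 (y+LAT1, a partner of 4F2hc also used by macrophages) was measured at 1113 and 1130 in WT and at 595 and 1033 in Foxq1 cKO samples. Its log2 value was -0.52 (unadjusted p = 0.203), and without Foxq1 cKO replicate 1, the low sample, it was -0.12 (unadjusted p = 0.769). Of 8 microglia and macrophage markers, 5 log2 means were also lower and 3 were higher, with a median log2 fold change of -0.31. The sum of 8 such markers was 9629 and 11962 in WT and 6983 and 7585 in Foxq1 cKO samples, and Csf1r, the receptor for the growth factor of these cells, had an unadjusted p of 0.0109, which was 0.0562 without WT replicate 1 and 0.0644 without Foxq1 cKO replicate 2. The part of these cells in the Slc7a7 values was not tested. Opposite-strand Oxa1l, a listed gene, overlaps 7.0% of the exon bases of Slc7a7.

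The lowest fold change of all 36 belonged to Slc7a11, which imports cystine for glutathione in exchange for glutamate. It was measured at 222 and 187 in WT and at 80.6 and 115 in Foxq1 cKO samples. The groups did not overlap, the mean was at 47.8% of WT, and the log2 fold change was -1.07 with a standard error of 0.664 (unadjusted p = 0.156). Slc7a10 (Asc-1, an exchanger of glycine and D-serine) was spread from 13.1 to 116 within the Foxq1 cKO group alone.

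Slc7a11 is a known target of ATF4, a factor induced by amino acid shortage. Its RefSeq promoter window (GRCm38.p6, 250 bases before to 50 after the start) holds the element bound by C/EBP-ATF dimers, TGATGCAA, on both strands. Such a window was at hand for 27 of the 36 members. The element, searched on both strands, stood in 0.895% of all 32851 windows and in 0.675% of 9332 listed genes with a window, and in 3 members, Slc7a11, Slc1a4 and Slc7a7. The sites are shown because they include 1 of the 3 members at an unadjusted p under 0.05 and the member with the lowest fold change. Capitals mark the element, and each sequence is read 5′ to 3′ on the strand that holds it.
Slc7a11, chr3:50443661-50443690, minus strand: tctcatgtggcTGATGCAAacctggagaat
Slc7a11, chr3:50443642-50443671, plus strand: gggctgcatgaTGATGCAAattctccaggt
Slc1a4, chr11:20332699-20332728, plus strand: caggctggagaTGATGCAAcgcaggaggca
Slc7a7, chr14:54417927-54417956, minus strand: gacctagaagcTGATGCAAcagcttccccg
All 3 genes lie on the minus strand. The elements of Slc7a11 begin 66 and 40 bases before its start, and those of Slc1a4 and Slc7a7 overlap an annotated start. A match is a description of the letters, and binding was not measured in these data.

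The ATF4 response is the set of genes that this factor turns on when amino acids run short. Of 16 listed genes in a list of 20, none had an unadjusted p under 0.05 in limma, DESeq2 or edgeR, 11 log2 means were lower and 5 higher, and the median log2 fold change was -0.28, -0.12 without WT replicate 1 and also -0.12 without Foxq1 cKO replicate 1. Atf4 itself was measured at 3686 and 2853 in WT and at 2409 and 2576 in Foxq1 cKO samples. Asns, the asparagine synthetase that is among its best known targets, was in the other direction, at 1620 and 1511 in WT and at 2403 and 2042 in Foxq1 cKO samples (log2 fold change 0.50, unadjusted p = 0.0657). Phgdh, the first enzyme of serine synthesis, was at 5929 and 4071 in WT and at 3982 and 3862 in Foxq1 cKO samples (-0.32, unadjusted p = 0.191).

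A second motif, GTTTC, which the study names for FOXQ1, was common. It stood in 45.0% of all windows on either strand, in 46.6% of listed genes with a window and in 12 of 27 members (44.4%), so the members' share was near the background. The sites of Slc1a4 and Slc43a2 are shown because these had an unadjusted p under 0.05. The motif does not overlap the C/EBP-ATF element in Slc1a4.
Slc1a4, chr11:20332836-20332862, plus strand: acctccctgacGTTTCccaggtcccgc
Slc43a2, chr11:75531603-75531629, plus strand: ggccgacgcctGTTTCcagccccactc
Slc43a2, chr11:75531897-75531923, minus strand: gcgattagcccGTTTCcatagaagcgg
Slc43a2, chr11:75532086-75532112, plus strand: gtgggcgggccGTTTCggggctccctg
Slc43a2 has 2 annotated starts in this set, one with 1 site and the other with 2. Slc7a1 and Slc3a2 also hold the motif.

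The sodium-coupled system A and N members overlapped between groups. Slc38a2, the adaptive system A carrier, was measured at 13222 and 13868 in WT and at 11970 and 14360 in Foxq1 cKO samples. Slc38a3 was at 16335 and 12825 in WT and at 12919 and 11870 in Foxq1 cKO samples. Slc38a1 was at 1174 and 1058 in WT and at 1143 and 966 in Foxq1 cKO samples. Their log2 fold changes were -0.047 (0.051 with quantile normalization), -0.23 and -0.084, with the widest 95% interval, that of Slc38a1, from -0.76 to 0.59. Slc38a3 was at -0.051 without WT replicate 1 (unadjusted p = 0.769) and at -0.40 without WT replicate 2 (unadjusted p = 0.0476).

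Among the lysosomal and less studied Slc38 members, Slc38a9 was lowest relative to WT. SLC38A9 is the arginine sensor of the lysosome that signals to mTORC1. It was measured at 656 and 741 in WT and at 314 and 567 in Foxq1 cKO samples, without overlap (log2 fold change -0.72, unadjusted p = 0.151), and the value without Foxq1 cKO replicate 1 was -0.30 (unadjusted p = 0.566). Slc38a10 was at 4083 and 6842 in WT and at 4762 and 4468 in Foxq1 cKO samples. WT replicate 1 was lowest and WT replicate 2 highest, and without WT replicate 1 the log2 fold change was -0.57 (unadjusted p = 0.0278) against -0.20 with all samples. Slc38a7 (579 to 822), Slc38a11 (197 to 479) and Slc38a6 (78.4 to 382) overlapped between groups.

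The Slc36 members are carriers of the lysosome and plasma membrane. Slc36a4 was measured at 781 and 818 in WT and at 390 and 753 in Foxq1 cKO samples (log2 fold change -0.56, unadjusted p = 0.238). Foxq1 cKO replicate 1 was the low sample, and without it the value was -0.087 (unadjusted p = 0.852). Slc36a1 (PAT1) was at 447 and 97.7 in WT and at 145 and 332 in Foxq1 cKO samples, so its samples differed more within a genotype than between the means.

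Of 23 listed genes in a list of 24 for amino acid sensing by mTORC1, Sesn1 alone had an unadjusted p under 0.05 in limma, DESeq2 and edgeR. Sesn1 encodes a sestrin, a relative of the leucine sensor SESN2. It was measured at 4337 and 5134 in WT and at 2873 and 3143 in Foxq1 cKO samples (log2 fold change -0.65, unadjusted p = 0.0116). That p was 0.0585 without WT replicate 2 and 0.070 without Foxq1 cKO replicate 1. The median of the list was 0.046, with 12 log2 means higher and 11 lower, and it was -0.090 without WT replicate 2 and -0.13 without Foxq1 cKO replicate 2. Tsc1, a subunit of the complex that restrains mTORC1, was at 5.06 in WT replicate 1 and 590 in WT replicate 2, against 1292 and 1253 in Foxq1 cKO samples.

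The glutamate transporters were led by Slc1a3, the transporter of radial glia and astrocytes. It was measured at 6810 and 7350 in WT and at 5957 and 5359 in Foxq1 cKO samples (log2 fold change -0.32, unadjusted p = 0.0736). The groups did not overlap. Slc1a2 (GLT-1), at 502 to 898, and Slc1a1 (EAAC1), at 342 to 730, overlapped, and an opposite-strand gene overlaps 31.9% of the exon bases of Slc1a1.

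Markers of radial glia and astrocytes were present in these libraries. The sum of 10 such genes was 32673 and 33025 in WT and 29589 and 30869 in Foxq1 cKO samples. Gfap, an astrocyte filament protein, was at 3073 and 2420 in WT and at 1081 and 1329 in Foxq1 cKO samples (log2 fold change -1.19, unadjusted p = 0.00310), whereas Fabp7, a radial glial fatty acid-binding protein, was at 5596 and 5731 in WT and at 5499 and 6104 in Foxq1 cKO samples. Of the 10 genes, 4 log2 means were higher and 6 lower, and Gfap alone had an unadjusted p under 0.05 in limma. DESeq2 also gave Nes, an intermediate filament of progenitors, an unadjusted p of 0.0418, higher in Foxq1 cKO samples. The part of glial RNA in the Slc1a3 values was not tested.

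The Slc6 members carry taurine, creatine, GABA, glycine and proline with sodium and chloride. Slc6a6, by far the most abundant, was measured at 21238 and 14143 in WT and at 11755 and 13662 in Foxq1 cKO samples. The groups did not overlap, but WT replicate 2 lay close to Foxq1 cKO replicate 2, and WT replicate 1 was well above the rest. The log2 fold change was -0.45 (unadjusted p = 0.0760), -0.16 (unadjusted p = 0.397) without WT replicate 1 and -0.74 (unadjusted p = 0.0042) without WT replicate 2.

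The other Slc6 members shown had p-values of 0.411 or more. Slc6a20a (a proline carrier), at 803 to 1021, and Slc6a11 (GAT3, a GABA carrier), at 802 to 1423, were the most abundant of them. Slc6a13 (GAT2, a carrier of GABA and taurine found in meningeal fibroblasts) was at 151 and 123 in WT and at 116 and 63.1 in Foxq1 cKO samples, without overlap. The sum of 5 meningeal fibroblast markers was 9099 and 9947 in WT and 9731 and 5861 in Foxq1 cKO samples. Foxq1 cKO replicate 2 was lowest in both, while Slc6a13 was highest in WT replicate 1 and the sum in WT replicate 2. Of the 5 markers, 3 log2 means were higher and 2 lower in Foxq1 cKO samples. The part of these cells in the Slc6a13 values was not tested.

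Large spread within WT was seen in the creatine transporter Slc6a8, at 341 and 91.7 in WT and 263 and 175 in Foxq1 cKO samples, the glycine transporter Slc6a9, at 144 and 19.9 in WT and 42.5 and 46.8 in Foxq1 cKO samples, and Slc6a17, at 16.9 and 195 in WT and 86.0 and 119 in Foxq1 cKO samples. In each of the 3 the WT samples bracketed both Foxq1 cKO samples. Their log2 fold changes changed sign when 1 WT sample was left out, and an opposite-strand gene overlaps 27.8% of the exon bases of Slc6a9.

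**Figure D4:**
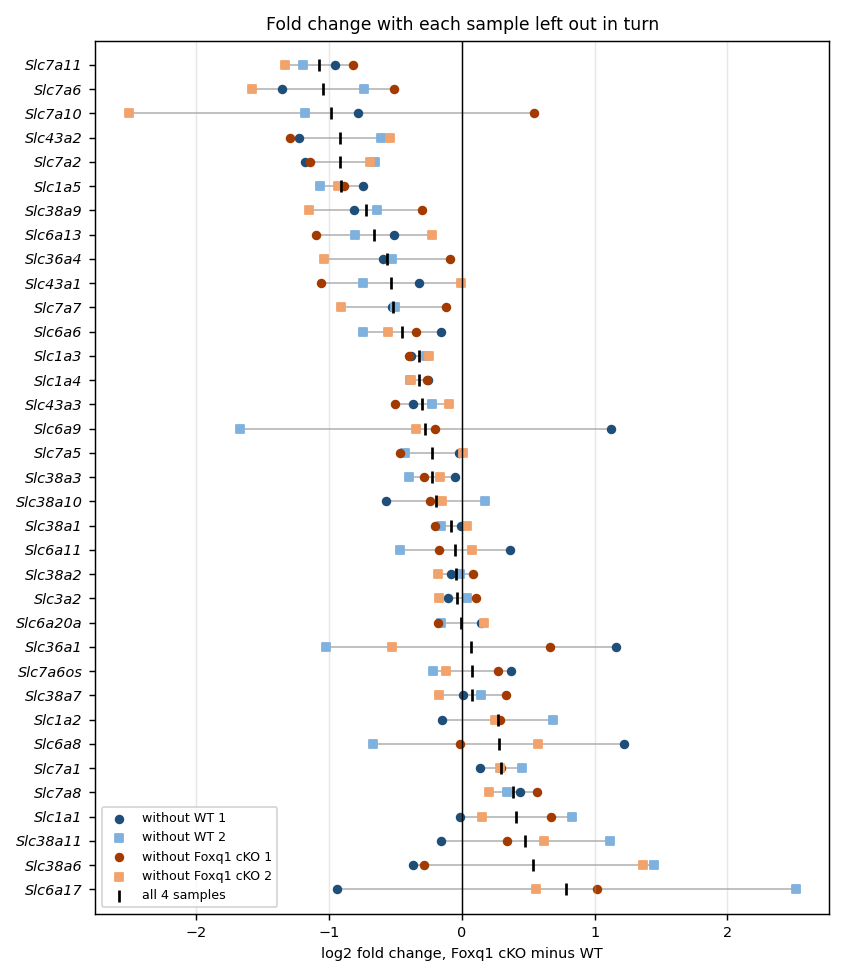
log2 fold change (Foxq1 cKO minus WT) of 35 of the 36 members with all 4 samples (black tick) and with each sample left out in turn (coloured points), joined by a grey line from the lowest to the highest. The lines of Slc1a4 (-0.39 to -0.25), Slc1a5 (-1.07 to -0.75) and Slc7a1 (0.13 to 0.45) stay on 1 side of 0, and those of Slc6a9, Slc36a1 and Slc6a17 cross it widely.

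Beside the amino acid carriers, 3 of 11 other transporters of the blood-brain barrier had an unadjusted p under 0.05 in limma. All 3 were lower in Foxq1 cKO samples, where 3.05% of all genes tested were lower at that threshold. Of the 11, 5 log2 means were higher and 6 lower, and the median log2 fold change was -0.19. Slc16a1 (MCT1, the lactate and ketone carrier) was measured at 44369 and 42549 in WT and at 23742 and 28218 in Foxq1 cKO samples, with a log2 fold change of -0.75 (unadjusted p = 0.000718). In limma its adjusted p was 0.857. DESeq2 gave Slc16a1 an adjusted p of 0.00323, where 0.465% of all genes had an adjusted p under 0.05. Mfsd2a, the carrier of lysophosphatidylcholine, had -0.31 (unadjusted p = 0.0312) and Abcc4, an efflux pump, had -1.01 (unadjusted p = 0.0147). Slc16a1 kept an unadjusted p under 0.05 whichever sample was left out, Mfsd2a kept it only without WT replicate 2, and Abcc4 lost it without Foxq1 cKO replicate 1 (unadjusted p = 0.0708). Slc2a1, the glucose transporter, was at 99099 and 92605 in WT and at 71956 and 89496 in Foxq1 cKO samples (-0.26, unadjusted p = 0.0813).

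Amino acid carriers of other families gave none of 10 listed genes at an unadjusted p under 0.05 in limma, DESeq2 or edgeR. In this list 7 log2 means were higher and 3 lower. Its median log2 fold change was 0.58, and between 0.23 and 0.67 with a sample left out. Of 18 listed enzymes that act on the carried amino acids, 1 had an unadjusted p under 0.05 in limma. This was Ckb, the creatine kinase of brain, at 17094 and 11302 in WT and at 9370 and 8725 in Foxq1 cKO samples (log2 fold change -0.62, unadjusted p = 0.0256), and it was -0.32 without WT replicate 1 (unadjusted p = 0.109). DESeq2 also gave an unadjusted p under 0.05 for Cdo1 and Bckdhb, and edgeR for Bckdhb. Cdo1, which begins the synthesis of taurine from cysteine, was at 577 and 429 in WT and at 33.7 and 259 in Foxq1 cKO samples (-2.39, unadjusted p = 0.0547).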

How the data were processed

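The authors deposited 1 table of normalized expression for CD31-sorted cortical ECs of 2 WT and 2 Foxq1 cKO samples. The deposited signal per gene was made by the authors from read counts, normalized by a single size factor for each sample, since the values, multiplied back, gave whole reads within 0.01 (100% of values in each sample). The 1207361 lines were reduced to 12693 gene names, and no listed gene had fewer than 21 reads in total, so genes not listed were not analysed here. The submitters' processing notes name mm9, Bowtie2 2.2.3, TopHat2 2.0.12 and HTSeq 0.6.0. Whether counting used strand is not given in the sources used here.

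limma 3.58.1 (lmFit, eBayes with trend; R 4.3.3) was fitted on log2(value + 1) for the 12472 genes whose mean reached 10, with Benjamini-Hochberg adjustment over all of them. The study's methods name no test for these data. As no gene passed adjustment in limma, unadjusted p-values under 0.05 are counted. With DESeq2, 59 of 12693 genes had an adjusted p under 0.05. The fit was tested on simulated data. Alternatives were pseudocounts of 0.1 and 5, no filter, a minimum mean of 50, TMM scaling, quantile normalization, eBayes without a trend, a replicate block, each sample left out, and DESeq2 1.42.0 and edgeR 4.0.16 on the recovered reads. The counts of members without overlap under quantile normalization were added after seeing the data. Exon lengths came from GENCODE (GRCm38), and promoter windows from RefSeq (GRCm38.p6). The motifs were also chosen after seeing the data.

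Of the members, 1 is not reported by name here and enters only the totals. All members and lists were chosen with earlier results of these data known. Genes named from other lists are those with an unadjusted p under 0.05 and markers or pathway genes of known role, some of them chosen after their values were seen. Tables and figures were made with Python 3.11.15 (pandas 2.3.3, matplotlib 3.10.9).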

Additional observations from a re-analysis of the deposited data

How the results depend on the processing

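The count of members at an unadjusted p under 0.05, 3 with limma, was 5 with quantile normalization, 7 with DESeq2 on the recovered reads and between 2 and 6 when 1 sample was left out. The lower ones numbered 3, 6 with DESeq2 and between 1 and 4 with a sample left out, 1 without Foxq1 cKO replicate 1. Over all genes the count was 651, between 276 (without Foxq1 cKO replicate 1) and 1569 (without WT replicate 2). With the replicate number as a block, 5 members had an unadjusted p under 0.05. The shares of all genes were 5.56% with the block, 5.18% with quantile normalization and 6.49% with DESeq2. The numbers were not taken as pairs, because the study names no paired test for these data. The deviations of samples with the same number had a correlation of 0.0325. With 2 samples per group this is a single value, which cannot show whether the samples were paired. No member had an adjusted p under 0.05 in limma, edgeR or DESeq2.

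Under the 10 alternatives with all samples, 329 values of the 35 members shown kept direction and side of the threshold, 12 crossed to a p under 0.05, 2 lost it and 7 changed sign. The 7 were Slc36a1 (-0.19 with DESeq2 and with edgeR), Slc6a17 (-0.049 with DESeq2, -0.052 with edgeR) and, with quantile normalization, Slc38a2 (0.051), Slc3a2 (0.011) and Slc6a20a (0.022). With a sample left out 25 values changed sign. The lowest and highest log2 fold changes were -0.011 and 0.83 for Slc1a1, -0.15 and 0.69 for Slc1a2, -1.02 and 1.16 for Slc36a1, -0.21 and 0.037 for Slc38a1, -0.57 and 0.18 for Slc38a10, -0.16 and 1.12 for Slc38a11, -0.18 and 0.085 for Slc38a2, -0.37 and 1.45 for Slc38a6, -0.17 and 0.33 for Slc38a7, -0.17 and 0.10 for Slc3a2, -0.46 and 0.36 for Slc6a11, -0.94 and 2.52 for Slc6a17, -0.18 and 0.17 for Slc6a20a, -0.67 and 1.22 for Slc6a8, -1.67 and 1.12 for Slc6a9, -2.51 and 0.55 for Slc7a10, -0.47 and 0.012 for Slc7a5, and -0.22 and 0.37 for Slc7a6os. The cause was not tested. Scarce and abundant members were both among those that changed sign, such as Slc6a17 at 10.1 per kb and Slc3a2 at 8086 per kb. Each group held 2 samples, so each fit with a sample left out had 1 sample in a group.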
